A study of Mus musculus with 6 samples.

Results

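Nampt lies on mouse chromosome 12, and the genes described here are those that flank it on that chromosome, read in kidneys of mice with a conditional knockout of Nampt. A gene was taken when its start, in the RefSeq table of assembly GRCm38.p6, was within 50 Mb of the start of Nampt (the lower coordinate of each gene, whichever its strand) and at least 1 of its probes was well above background on all arrays of a group. Of 363 named genes in that interval, 7 were left out by name (Nampt itself, Adam17, Rrm2, Rsad2, Hif1a, Nfkbia and Egln3) and 6 as ribosomal, mitochondrial ribosomal or proteasome genes. Of the remaining 350 genes, 278 were detected and 72 were not. These 278 flanking genes were 278 of the 15309 genes tested on the array. Of them, 261 passed on the arrays of both groups, 16 on the control arrays only and 1 on the knockout arrays only. They lay from 29.58 Mb before to 49.8 Mb after Nampt, 97 before it and 181 after it, and 264 were protein coding. They were read by 382 of the 32948 probes kept, with 83 genes read by several probes and 195 by 1.

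The animals were male mice of strain C57BL/6J. A group of 3 was labelled Control and a group of 3 iNampt-conditional knockout, and total RNA of each whole kidney was read on 1 Agilent array with a single dye, Cy3. The series title places the study in renal proximal tubules, the segment that reabsorbs most of the filtrate. The promoter that drives the recombinase, the deleted exons, the strain in which the allele was made, the age of the animals and the makeup of the control genotype are not given in the sources used here. No DNA sequence of the animals was analysed here. Signals are given as log2 of the processed signal minus the 75th percentile of that array, so a level of 0 is the 75th percentile, and a difference is knockout minus control. Levels of different probes are not compared with each other.

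Genes that lie close together on a chromosome are inherited together, the more often the closer they are, and this linkage falls off with distance. A region bred from another strain along with a targeted allele can therefore remain around it. An expression probe reads a short stretch of a transcript, so probes of a gene can differ in the isoforms they read and in how well they match the transcript of the sample. The genes around Nampt are of many kinds and include ion and amino acid transporters, transcription factors, enzymes and parts of the secretory pathway.

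The promoters of 5 of these genes are shown because the results turn on their probes: Sntg2, Cmpk2, Plek2 and Dtd2 passed the test as genes, and Eif2s1 had a probe that passed. Each runs from 250 bases before to 50 bases after the transcript start, 5′ to 3′ on the gene's own strand, from RefSeq on GRCm38.p6. Capitals mark matches, on either strand, to TATAAA (the TATA box), CCAAT (the CCAAT box) or GGGCGG (the GC box, CCGCCC on the other strand). The windows are chr12:30373327-30373626 (minus strand) for Sntg2, chr12:26468965-26469264 (plus strand) for Cmpk2, chr12:52006458-52006757 (minus strand) for Dtd2, chr12:78861822-78862121 (plus strand) for Eif2s1 and chr12:78906889-78907188 (minus strand) for Plek2.
Sntg2: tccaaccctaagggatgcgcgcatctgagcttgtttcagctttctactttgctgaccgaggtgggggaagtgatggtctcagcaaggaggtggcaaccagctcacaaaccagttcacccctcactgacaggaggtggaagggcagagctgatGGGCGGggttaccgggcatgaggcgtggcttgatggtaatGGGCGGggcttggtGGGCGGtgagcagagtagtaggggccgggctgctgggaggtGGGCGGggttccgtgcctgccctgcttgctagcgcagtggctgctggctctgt
Cmpk2: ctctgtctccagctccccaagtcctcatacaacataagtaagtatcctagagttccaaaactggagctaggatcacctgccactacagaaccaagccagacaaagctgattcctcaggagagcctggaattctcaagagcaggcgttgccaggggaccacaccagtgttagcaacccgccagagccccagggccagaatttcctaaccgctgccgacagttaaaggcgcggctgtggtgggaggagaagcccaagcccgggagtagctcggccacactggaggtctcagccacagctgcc
Dtd2: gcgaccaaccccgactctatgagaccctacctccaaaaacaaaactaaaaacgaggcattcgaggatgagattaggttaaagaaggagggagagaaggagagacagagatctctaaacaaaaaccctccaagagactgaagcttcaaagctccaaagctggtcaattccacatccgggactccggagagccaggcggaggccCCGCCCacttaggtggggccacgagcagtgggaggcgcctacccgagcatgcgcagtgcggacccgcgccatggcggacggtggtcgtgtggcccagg
Eif2s1: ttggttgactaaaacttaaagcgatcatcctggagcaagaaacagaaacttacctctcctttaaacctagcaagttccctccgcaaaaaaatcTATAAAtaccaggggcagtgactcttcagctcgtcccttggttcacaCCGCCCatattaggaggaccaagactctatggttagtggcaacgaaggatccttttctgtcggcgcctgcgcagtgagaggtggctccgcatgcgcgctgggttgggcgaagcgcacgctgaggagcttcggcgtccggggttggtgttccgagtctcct
Plek2: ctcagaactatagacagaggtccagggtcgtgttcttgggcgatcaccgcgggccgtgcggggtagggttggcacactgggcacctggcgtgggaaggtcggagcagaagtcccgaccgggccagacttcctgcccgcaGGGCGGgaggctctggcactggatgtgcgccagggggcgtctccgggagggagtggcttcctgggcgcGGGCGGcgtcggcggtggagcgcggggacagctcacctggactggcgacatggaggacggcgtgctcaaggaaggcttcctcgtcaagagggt

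The Sntg2 window held 4 GC boxes, that of Plek2 2 and those of Dtd2 and Eif2s1 1 each, while the Cmpk2 window held none of the 3 motifs. The Eif2s1 window also held 1 TATA box. Greb1 and Slc38a6, which also passed the test as genes, are not shown. The 2 windows of Greb1 held 0 GC boxes and 1 CCAAT box each, and that of Slc38a6 held none of the 3 motifs. Windows were in the table for 241 of the 278 flanking genes. With 1 window a gene, a GC box was found in 35.9% of 27025 mouse windows of that length and in 152 of the 241 (63.1%). The TATA box was found in 14.2% of all and 7.47% of flanking gene windows, and the CCAAT box in 37.9% and 35.7%. The median window held 7 CpG dinucleotides over all promoters and 22 over flanking genes. The windows of Plek2 held 27, of Dtd2 and Eif2s1 18 each, of Sntg2 12 and of Cmpk2 8. All promoters include those of genes not detected here, so these shares describe the windows and are not compared by a test.

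Nampt, which encodes the rate-limiting enzyme of NAD salvage, was the targeted gene. Its level was 2.775, 2.591 and 2.646 in the controls and 1.804, 1.502 and 1.531 in the knockouts. All 3 knockouts lay below all 3 controls. The means were 2.67 ± 0.09 and 1.61 ± 0.17 (SD, n = 3 each), and the difference was -1.06 ± 0.10 (SE; limma, adjusted p = 0.0431 over all 15309 genes). RNA of other kidney cells is included in these levels, and in such bulk RNA fewer cells of a type and less RNA per cell cannot be told apart.

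No spot was saturated, and per array 57.3% to 63.3% of them stood well above background. All 6 arrays lay on 1 slide and came from 1 scan, with the 3 controls and knockout 1 in row 1 of the slide and knockouts 2 and 3 in row 2. With row as a block, the difference of a gene equals that of knockout 1 from the controls within row 1, since row 2 held knockouts only. On that fit Nampt had a difference of -0.87 with adjusted p = 0.0733. The labels number the samples 1 to 3 in each group, and each was read as a separate mouse. The p-values weigh the difference between groups against the spread between samples within groups. That spread holds animal and technical variation together, and 3 animals a group limit the precision. An exact permutation test of 3 against 3 animals cannot go below p = 0.1. All 6 proximal tubule markers (Slc34a1, Slc5a2, Lrp2, Cubn, Slc22a6 and Aqp1) were detected on every array and differed by -0.08 to 0.04. The 4 macrophage markers differed by 0.27 to 1.37, the 2 neutrophil markers by -2.39 and -2.34, the 3 adipocyte markers by -1.64 to -1.11 and the 2 erythroid markers by -0.76 and -0.69. The mean macrophage level was 0.53 to 0.98 in controls and 1.1025 to 1.49 in knockouts, that of neutrophils 1.1025 to 1.55 and -1.73 to -0.25, that of adipocytes 1.08 to 2.28 and -0.92 to 1.82 and that of erythroid cells 4.75 to 5.05 and 3.82 to 4.80. Markers of distal tubule, collecting duct, podocytes, endothelium, T cells and fibroblasts differed by -0.28 to 0.50. All were detected on every array, none of these markers passed the test, and their part in the results was not tested.

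Of the 278 flanking genes, 7 passed an adjusted p of 0.05 (2.52%), against a background of 0.17% over all genes tested (26 of 15309). In the knockouts 3 were higher, against a background of 0.105%, and 4 were lower, against 0.0653%. Dtd2 is counted as higher by its probe of highest mean only, since another of its probes was lower. An unadjusted p under 0.05 was reached by 72 flanking genes (25.9%), against 12.8% of all genes, with 39 of them higher (background 6.69%) and 33 lower (background 6.13%). The 3 knockouts lay wholly above or wholly below the 3 controls for 89 flanking genes (32%), against 19.5% of all genes. Of these, 46 were higher in the knockouts (background 9.04%) and 43 lower (background 10.5%). A difference of at least 1.5-fold was found for 21 flanking genes (7.55%), against 2.91% of all genes. Differences of the flanking genes ran in both directions in near equal numbers, and their median difference was 0.003, beside -0.008 over all genes. Their median absolute difference was 0.103, beside 0.0766. Genes are measured on the same 6 arrays and are not independent, so these shares are given as a description.

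The share was above that of all genes with other filters on low signal too. Among the 261 flanking genes detected on all 6 arrays, 26.8% had an unadjusted p under 0.05, against 13% of all genes so detected. Among all 350 candidates with no filter, 26.9% did, against 19.9% of all genes. The number that passed the adjusted test depended on single animals. It was 0 of 278 to 283 genes without control 2, control 3, knockout 2 or knockout 3. There 0, 0, 1 and 1 of all genes passed. In the same order, 61, 70, 59 and 58 flanking genes had an unadjusted p under 0.05 (21.9%, 24.7%, 21.2% and 20.8%). The shares of all genes were 9.4%, 10.1%, 9.37% and 9.01%. Without control 1, 3 flanking genes passed, beside 34 of all 15400 genes. Without knockout 1, 11 passed, beside 95 of all 15342 genes. With slide row as a block, 1 flanking gene passed (Plek2), beside 16 of all 15309 genes. In that fit 20.1% had an unadjusted p under 0.05, against 10.2% of all genes.

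Along the chromosome, the share of genes whose groups did not overlap was higher near Nampt than far from it in these samples. Within 20 Mb of Nampt the groups did not overlap for 43 of 97 flanking genes (44.3%), and beyond 20 Mb for 46 of 181 (25.4%). Beyond the 50 Mb limit, on the rest of chromosome 12, they did not overlap for 52 of 236 genes (22%). On the other 19 chromosomes measured this share ran from 14.9% to 23.2%. Of the 236 genes, 0 passed limma's adjusted test. An unadjusted p under 0.05 was reached by 41 of them (17.4%), against 12.8% of all genes. A difference of at least 1.5-fold was found for 12 (5.08%), against 2.91% of all genes and 1.83% to 4.22% on the other chromosomes. The median absolute difference was 0.168 within 20 Mb, 0.0823 beyond it, 0.086 on the rest of chromosome 12 and 0.0702 to 0.0853 across the other chromosomes. An unadjusted p under 0.05 was reached by 39.2% of genes within 20 Mb and 18.8% beyond, beside 10% to 16.1% on the other chromosomes. The 20 Mb boundary was chosen after the values were seen, so these values carry no test.

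In windows of 10 Mb the share of genes whose groups did not overlap was highest from 10 to 20 Mb after Nampt, at 11 of 16 genes (68.8%). That window holds fewer than 20 genes, and 9 of the 11 were lower in the knockouts. The share was 47.1% of 34 genes in the 10 Mb just before Nampt, where 12 of 16 were higher, and 40.9% of 22 genes from 20 to 10 Mb before it. It was 26.8% of 41 genes from 30 to 20 Mb before Nampt. After Nampt the share was not highest next to the gene. It was 28% of 25 genes in the nearest 10 Mb, 39.3% of 28 genes from 20 to 30 Mb, 18.6% of 43 genes from 30 to 40 Mb and 23.2% of 69 genes from 40 to 50 Mb. On this measure the last 2 windows were close to the background of 19.5%, although 3 of the 7 genes that passed the test lay in them. On other measures they were less so. An unadjusted p under 0.05 was reached by 16.3% and 20.3% of their genes, against 12.8% of all genes. A difference of at least 1.5-fold was found for 4.65% and 7.25%, against 2.91%. Their median absolute differences were 0.0625 and 0.0888, beside 0.0766.

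**Figure D1:**
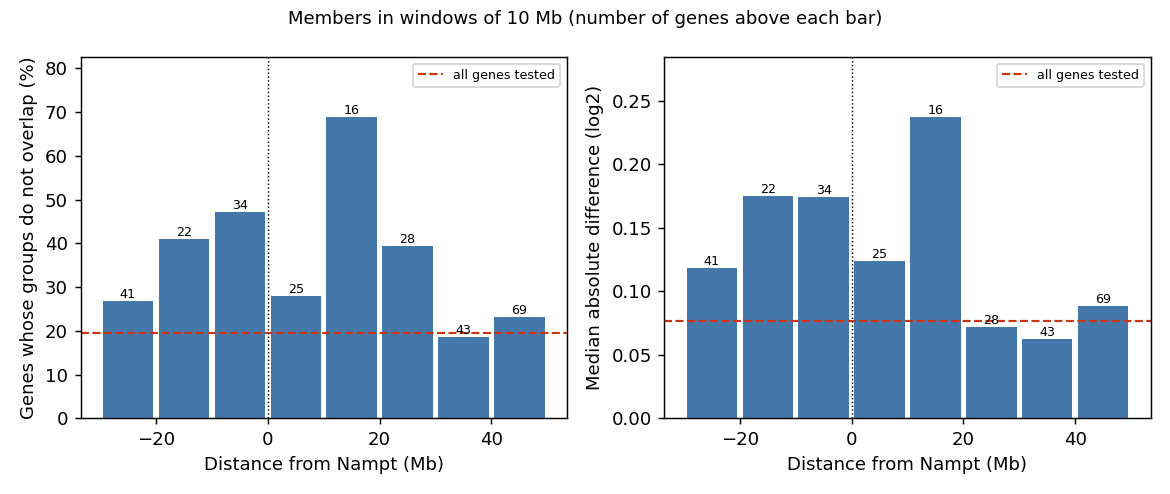
Share of flanking genes whose 3 knockouts and 3 controls do not overlap (left, percent) and median absolute knockout minus control difference (right, log2) in windows of 10 Mb of distance from Nampt, with the number of genes above each bar and the value over all genes tested as a dashed line. The tallest bar in each panel is the window from 10 to 20 Mb, with 16 genes, 68.8% and 0.237, and the window from 30 to 40 Mb lies just below both dashed lines, at 18.6% and 0.0625.

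Of the 382 probes of flanking genes, 9 passed an adjusted p of 0.05 in the fit over all 32948 probes (2.36%), against 0.0789% of all probes. Of these, 8 were lower in the knockouts, against a background of 0.0516%, and 1 was higher, against 0.0273%. The higher probe was that of Sntg2. Among the lower were both probes of Cmpk2, that of Plek2, 1 of 3 probes of Dtd2 and 1 of 2 probes of Eif2s1. Some of the 8 share a gene, and probes of a gene are not independent, so they are not 8 separate genes. An unadjusted p under 0.05 was reached by 101 probes (26.4%), against 11%. The groups did not overlap for 130 probes (34%), against 17.3%. The lower count was 1 to 3 without control 1, 2 or 3 or knockout 2 or 3 (2, 2, 1, 2 and 3) and 10 without knockout 1. The higher count was 2 without knockout 1 and 0 without any other array. The shares over all probes are not given for these settings. Calls over all genes also rose without knockout 1, from 26 to 95 genes, so these counts are not read as particular to the flanking genes.

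**Figure D2:**
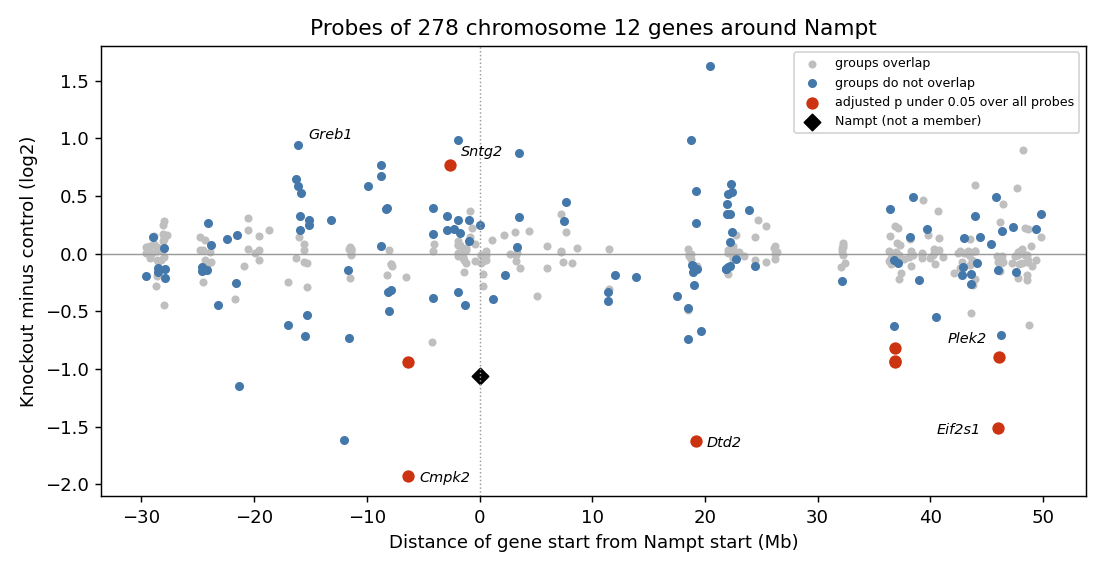
Knockout minus control difference (log2) of each of the 382 probes of 278 flanking genes against the distance of the gene's start from that of Nampt (Mb); grey points are probes whose groups overlap, blue points probes whose groups do not, red points the 9 probes with adjusted p under 0.05, and the black diamond Nampt. Points lie on both sides of 0 along the whole interval, and the lowest red points are the Cmpk2 probe at -1.92 and the Dtd2 probe at -1.63.

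Greb1, a cofactor of the estrogen receptor that starts 16.15 Mb before Nampt, was higher in the knockouts. Its level was 0.252, 0.415 and 0.402 in the controls and 1.447, 1.116 and 1.348 in the knockouts. All 3 knockouts lay above the controls by more than the spread within either group, with a difference of 0.95 ± 0.10 (SE, n = 3 each; limma, adjusted p = 0.0458). Its other probe differed by 0.58 ± 0.09 (adjusted p = 0.125 over all probes).

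Cmpk2, a mitochondrial nucleotide kinase known as an interferon-induced gene, starts 6.35 Mb before Nampt and was lower in the knockouts. Its level was 0.181, 0.100 and 0.142 in the controls and -0.724, -0.938 and -0.739 in the knockouts. The groups lay far apart, with a difference of -0.94 ± 0.07 (limma, adjusted p = 0.0277). Its other probe read -0.969, -1.114 and -1.093 in the controls and -2.966, -2.874 and -3.109 in the knockouts, a difference of -1.92 ± 0.08 (adjusted p = 0.00247 over all probes). Both probes fell, and the mean of them fell by 1.43 on the log2 scale. The within-array ratio of the probes differed by 0.98 ± 0.11 and did not pass (limma, adjusted p = 0.109 over all probe pairs).

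Sntg2, a syntrophin that ties proteins to the dystrophin complex under the cell membrane, starts 2.65 Mb before Nampt and was the called gene nearest to it. Its level was -1.981, -1.839 and -1.801 in the controls and -1.077, -1.096 and -1.141 in the knockouts. It was higher in every knockout than in any control, with a difference of 0.77 ± 0.06 (limma, adjusted p = 0.0314). It was read by a single kept probe.

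Plek2, a pleckstrin that links membrane lipids to the actin cytoskeleton, starts 46.07 Mb after Nampt. Its level was -1.643, -1.599 and -1.663 in the controls and -2.535, -2.547 and -2.500 in the knockouts. The spread within each group was small beside the gap, and the difference was -0.89 ± 0.04 (limma, adjusted p = 0.00823), at rank 2 by p among all genes tested. Slc38a6, of a family of amino acid transporters, starts 40.47 Mb after Nampt and was also lower. Its level was -0.347, -0.353 and -0.448 in the controls and -0.889, -0.918 and -0.994 in the knockouts, with no overlap and a difference of -0.55 ± 0.05 (adjusted p = 0.0458). Each of them was read by 1 kept probe.

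Dtd2, which removes D-amino acids and mischarged residues from transfer RNA, starts 19.17 Mb after Nampt, and its direction depended on the probe. On the probe with the highest mean its level was 0.751, 0.657 and 0.761 in the controls and 1.322, 1.269 and 1.208 in the knockouts. This probe was higher in the knockouts, with a difference of 0.54 ± 0.06 (limma, adjusted p = 0.0458 over genes). Another probe read 0.940, 0.905 and 0.955 in the controls and -0.641, -0.673 and -0.768 in the knockouts. It was lower, with a difference of -1.63 ± 0.06 (adjusted p = 0.00138 over all probes). The mean of its 3 probes differed by -0.27, so no direction is given for the gene as a whole.

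**Figure D3:**
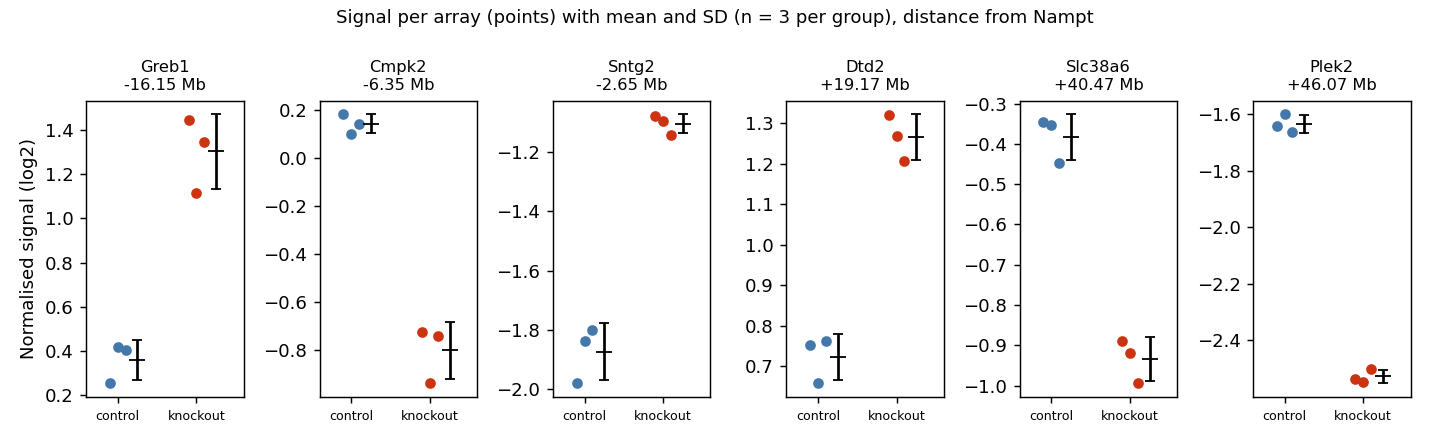
Normalised signal (log2, relative to the 75th percentile of each array) of Greb1, Cmpk2, Sntg2, Dtd2, Slc38a6 and Plek2 on the 3 control arrays (blue) and 3 knockout arrays (red), with mean and SD beside the points and the distance from Nampt above each panel; axes differ between panels. In every panel the groups are apart: the knockouts lie above the controls for Greb1, Sntg2 and this probe of Dtd2 and below them for Cmpk2, Slc38a6 and Plek2.

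With slide row as a block, Greb1 had a difference of 1.09 (adjusted p = 0.0756), Cmpk2 of -0.86 (0.0758), Sntg2 of 0.80 (0.0758), Dtd2 of 0.60 (0.0932) and Slc38a6 of -0.51 (0.131), so their calls were lost at nearly the same size. Plek2 had -0.90 and kept its call (adjusted p = 0.0440). All 7 genes that passed kept their sign when any single array was left out. On the same probe this must be so where the groups do not overlap, as for all 7, so it adds no support.

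The genes nearest to Nampt did not pass the test. Before it lie Cog5 (a Golgi tethering subunit), Hbp1 (a transcription factor), Prkar2b (a regulatory subunit of protein kinase A), Pik3cg (a phosphoinositide kinase of immune cells) and Ccdc71l, 1.17 to 0.44 Mb away. Their differences were -0.08 ± 0.10, 0.11 ± 0.05, 0.11 ± 0.25, 0.22 ± 0.15 and 0.09 ± 0.07 (SE), and only for Hbp1 did the groups not overlap. After Nampt lie 4933406C10Rik, Sypl (a synaptophysin-like vesicle protein), Atxn7l1 and Twistnb (an RNA polymerase I subunit), 0.1 to 0.61 Mb away. They differed by -0.08 ± 0.14, -0.01 ± 0.06, -0.06 ± 0.08 and -0.05 ± 0.06, and the groups overlapped for each. Gdap10 starts within Nampt, 3.78 kb from its start. Its level was 1.898, 1.639 and 1.553 in the controls and 1.903, 1.982 and 1.946 in the knockouts, just above all controls, with a difference of 0.25 ± 0.10 (limma, adjusted p = 0.369). As the genes overlap, this value is uncertain.

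Where a gene had several kept probes, the log2 ratio of each pair of them within an array was compared between groups, a measure that no scaling between arrays can move when it shifts all probes of an array alike. Of 5911 such pairs over 4048 genes, 132 pairs (2.23%) belonged to 83 flanking genes. Only 3 pairs of all genes passed an adjusted p of 0.05 (background 0.0508%), and all 3 were of flanking genes, Dtd2 with 2 pairs and Adi1 with 1. The 6 pairs of smallest p were all of flanking genes, 5 genes in all, as were 13 of the top 20 and 18 of the top 50. An unadjusted p under 0.05 was reached by 36 of the 132 pairs (27.3%), against 9.74% of all pairs, and the groups did not overlap for 41 of them (31.1%), against 16.4%. The median absolute pair difference was 0.117 for flanking genes, beside 0.0611 to 0.0945 on the other chromosomes. Pairs of a gene share probes and are not independent.

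For 4 of the 83 flanking genes with several probes (4.82%), Acp1, Adi1, Baz1a and Dtd2, a probe lay wholly above the controls in the knockouts and another wholly below, against 0.667% of all such genes (27 of 4049). The Dtd2 ratios of the lower probe's partners to it differed by 2.17 ± 0.04 (limma, adjusted p = 2.99e-05) and 1.90 ± 0.07 (adjusted p = 0.000951). With row as a block these were 2.17 and 2.04 (adjusted p = 0.00203 for each). The larger passed under each of 15 alternatives and the other under 14.

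Adi1, an enzyme of methionine salvage 4.15 Mb before Nampt, showed opposite probes of similar size. A probe read 2.369, 2.421 and 2.555 in the controls and 2.783, 2.839 and 2.909 in the knockouts, and the other read 2.679, 2.790 and 2.808 in the controls and 2.407, 2.357 and 2.360 in the knockouts. The former lay above and the latter below all controls, so the within-array ratio differed by 0.78 ± 0.06 (limma, adjusted p = 0.0409) although neither probe passed alone. This call was kept in 7 of 15 alternatives and was lost with row as a block (0.69, adjusted p = 0.0834).

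Eif2s1 encodes the alpha subunit of the initiation factor whose phosphorylation slows translation, and lies next to Plek2, with the lower coordinates of both genes 26.6 kb apart. That end of Plek2, on the minus strand, is its 3′ end. A probe of it read -0.411, -0.364 and -0.436 in the controls and -1.751, -1.968 and -2.032 in the knockouts. That probe was lower in each knockout, with a difference of -1.51 ± 0.09 (limma, adjusted p = 0.00974 over all probes). Its other probe read 2.644, 2.595 and 2.781 in the controls and 2.518, 2.663 and 2.624 in the knockouts. There the groups overlapped, with a difference of -0.07 ± 0.07 (adjusted p = 0.734 over genes), and the pair differed by -1.44 ± 0.13 (adjusted p = 0.0511), just outside the threshold. The next pairs by p were of Baz1a, a chromatin remodelling subunit (-0.63), and Acp1, a small tyrosine phosphatase (-0.62), each at adjusted p = 0.0621. The 5 probes of Acp1 differed by -0.33, 0.11, 0.08, 0.08 and 0.29, and the outer ones alone did not overlap between groups.

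**Figure D4:**
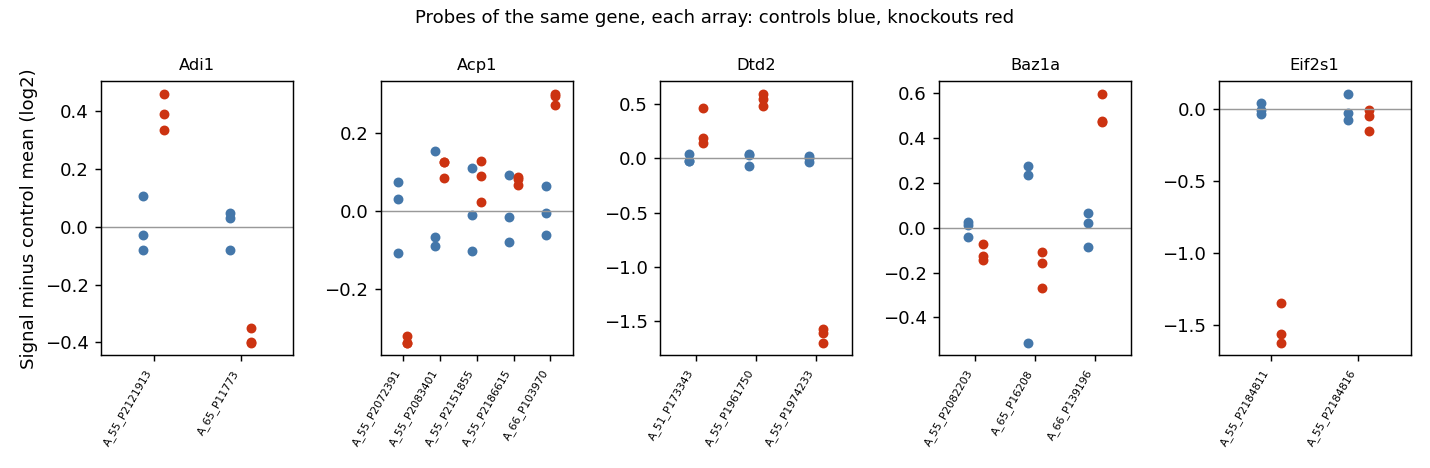
Signal of each kept probe of Adi1, Acp1, Dtd2, Baz1a and Eif2s1 on each array minus that probe's control mean (log2), controls in blue and knockouts in red; axes differ between panels. For Adi1, Acp1, Dtd2 and Baz1a the knockout points lie above the controls on some probe and below them on another, and for Eif2s1 they fall on 1 probe (-1.51) and overlap the controls on the other (-0.07).

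The flanking genes were also read by role, from lists chosen with earlier results of these data known. Of 14 transporter and channel genes listed, 11 were detected, and 1 passed the test, lower (Slc38a6). Their median difference was -0.137 and their median absolute difference 0.163, beside -0.008 and 0.0766 over all genes. Slc26a4, the chloride-bicarbonate exchanger pendrin of intercalated cells, read 4.251, 4.212 and 4.442 in the controls and 3.887, 3.905 and 3.770 in the knockouts. It was lower in each knockout without passing the test (-0.45 ± 0.08; limma, adjusted p = 0.138). The mitochondrial carrier Slc25a21 differed by 0.38 ± 0.13 and the proton pump subunit Atp6v1d by -0.14 ± 0.06, and neither passed.

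Of 30 transcription factors and chromatin regulators, 24 were detected, and 1 passed, higher (Greb1). Their median difference was 0.018, and the groups did not overlap for 10 of the 24, against 19.5% of all genes. Klf11, a Krüppel-like factor, differed by 0.39 ± 0.05 (limma, adjusted p = 0.0916) and Taf1b, of the RNA polymerase I initiation complex, by 0.39 ± 0.08, and neither passed. Npas3, a PAS-domain factor, had the largest positive difference of any flanking gene. Its level was -4.375, -5.157 and -4.439 in the controls and -3.195, -2.307 and -3.596 in the knockouts. The knockouts lay above the controls but spread widely, and the difference of 1.63 ± 0.38 did not pass (adjusted p = 0.208).

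Of 26 genes of lipid, nucleotide and amino acid metabolism, 25 were detected, with Dtd2 higher on its chosen probe and Cmpk2 lower. Their median difference was -0.036, and Mboat2, a lysophospholipid acyltransferase, differed by -0.50 ± 0.10 without passing. Of 23 matrix, adhesion and cytoskeleton genes, 21 were detected, with Sntg2 higher and Plek2 lower. Their median difference was 0.013 and their median absolute difference 0.224. Syndecan-1 (Sdc1), a cell surface proteoglycan, differed by 0.26 ± 0.04 (limma, adjusted p = 0.121).

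All 21 genes of the secretory pathway and vesicle traffic were detected and none passed limma's adjusted test, with 5 higher (background 6.69%) and 3 lower (background 6.13%) at an unadjusted p under 0.05. Their median difference was 0.008. The signal recognition particle genes Srp54a and Srp54b, near-identical copies whose probes may read each other's transcript, differed by 0.35 ± 0.05 and 0.61 ± 0.09. The sorting nexin Snx6 differed by 0.43 ± 0.08, the SNARE Vti1b by 0.20 ± 0.06 and the endoplasmic reticulum chaperone Dnajb9 by -0.33 ± 0.07. For each of these the groups did not overlap.

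Of 11 genes of DNA replication and repair, 10 were detected and none passed limma's adjusted test, with 1 higher (background 6.69%) and 2 lower (background 6.13%) at an unadjusted p under 0.05. Both of the lower genes passed the filter on signal only through the control arrays, where they were higher, so this count supports no direction. The Holliday junction resolvase Gen1 was well above background on all 3 control arrays and on 1 knockout array, so its measured difference of -0.25 ± 0.07 rests on dim knockout signals. The chromosome maintenance subunit Smc6 differed by 0.16 ± 0.07 and the exonuclease Exd2 by -0.15 ± 0.07, and none of the 3 passed. Dock4, an activator of Rac, was the gene of smallest p in the 10 Mb after Nampt, at 0.45 ± 0.08 (adjusted p = 0.156).

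At the edge of the interval, the last genes inside the 50 Mb limit were Sipa1l1 and Rgs6, at 49.35 and 49.8 Mb. Their differences were -0.05 ± 0.06 and 0.34 ± 0.10. Just outside it, Dpf3 at 50.39 Mb differed by -0.41 ± 0.10 (limma, adjusted p = 0.236) and Dcaf4 at 50.7 Mb by 0.23 ± 0.07 (adjusted p = 0.280). For Rgs6, Dpf3 and Dcaf4 the groups did not overlap, and none of the 4 passed the test.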

How the data were processed

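Total RNA of 6 whole mouse kidneys was labelled with Cy3 and read on 1 single-colour Agilent array each, per the labels' protocols. The authors deposited scanner output of Agilent Feature Extraction (version 10.7.1.1 in the submitters' processing notes), from which the processed intensity was used, a linear value corrected for background and detrended on each array, per the file headers. The deposited 0 or 1 marks of a spot as outlier, saturated or well above background were used unchanged. A further value table by the authors gives a linear ratio, which was the processed signal divided by a constant of each array for at least 99.9% of 13934 to 13936 probes compared (within 1%). Its column medians lay between 0.075 and 0.084, and it was used as an alternative.

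Spots marked as outliers (92 to 151 on each array) were dropped, spots of a probe averaged, log2 taken and the 75th percentile of each array subtracted. A probe was kept when it stood well above background throughout at least 1 group. Accessions matched to RefSeq on GRCm38.p6 named 28026 of 55681 probes. The headers give mm9 as the build of the array's positions, so that table gave names, order and distances from Nampt only. A gene with several kept probes was read by the one with the highest mean, chosen again in each alternative. Differences between knockout and control were fitted in R 4.3.3 with limma 3.58.1 (lmFit and eBayes, group as the only term, Benjamini-Hochberg over all genes, all probes or all probe pairs). The fit was tested on simulated data. Tables and plots used Python 3.11.15, pandas 2.3.3 and matplotlib 3.10.9.

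The genes, the lists and the rule for named genes were chosen with earlier results of these data known. The rule takes Nampt, genes and probes that passed, up to 10 genes with a pair that passed, the 5 nearest genes on each side, the gene of smallest p in each 10 Mb window, 2 genes inside and 2 outside the limit, and up to 4 genes of smallest p in each list. Baz1a and Acp1 were named after their values were seen. Some genes that the rule takes, 1 of them past the test, are counted but not reported here. Alternatives were other scalings, normexp with an offset of 50 (run on median spot signals, where mean signals had been planned), the authors' values, no filter or one on all 6 arrays, averaging the probes of a gene, a trended and robust variance, a block for replicate number or for slide row, and dropping each array in turn.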

Additional observations from a re-analysis of the deposited data

How the results depend on the processing

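The replicate numbers of the labels were not taken as pairs of animals. Deviations from the group means correlated at 0.108, -0.085 and -0.034 for same-numbered samples. For differently numbered samples they correlated at -0.086 to 0.123. With 3 animals a group, these values cannot settle whether the animals were paired. With the number as a replicate block, 0 flanking genes and 0 of their probes passed limma's adjusted test in either direction. Of all 15309 genes, 0 passed in that fit too, so the loss of gene calls was not particular to the flanking genes. There 63 of 278 flanking genes had an unadjusted p under 0.05, beside 1636 of all 15309 genes. In the same fit 1 probe pair passed, of Dtd2 (adjusted p = 0.0120). In the fit blocked by slide row, 0 genes were called higher and 1 lower, and 0 probes higher and 3 lower. The 3 genes called higher became 1 with quantile normalisation, 1 with no filter and 1 when probes of a gene were averaged. The 1 probe called higher became 0 with quantile normalisation, 5 with normexp, 2 with no filter, 2 with the filter on all 6 arrays and 7 with a trended variance. The 3 probe pairs became 5 with quantile normalisation, 5 with normexp, 5 with a trended variance and 6 with the filter on all 6 arrays. Leaving out each array in turn, genes called higher ranged from 0 to 4 and lower from 0 to 7, probes called higher from 0 to 2 and lower from 1 to 10, and pairs from 2 to 3. Calls over all genes changed too, from 0 to 95 genes when an array was left out. Beside 26 at first, they were 11 with quantile normalisation, 27 with normexp and 77 with no filter. With the filter on all 6 arrays they were 24, with averaged probes 25 and with a trended variance 57. The shares over all probes and all pairs are not given for these settings. The counts above are therefore not read as particular to the flanking genes. The cause of these changes in calls was not tested. Over all settings, 20.1% to 29.9% of flanking genes had an unadjusted p under 0.05, beside 9.01% to 19.9% of all genes, and the share was above that of all genes in each.

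Among the 40 flanking genes of the naming rule, 33 kept their direction under every alternative that tested them and 7 did not. There were 16 alternatives, and some genes, Gen1 among them, were tested in 15. Dtd2 turned to -0.272 with the mean of its probes. Leaving out an array, Adi1 ranged from -0.377 to 0.449 (-0.375 without knockout 2 and -0.377 without knockout 3). The probe of highest mean was chosen again in each setting, and both negative values come from the other probe of Adi1. They show a change of probe, not of direction on a probe. Leaving out an array, 4933406C10Rik ranged from -0.156 to 0.0536 (0.00233 without knockout 2), Prkar2b from -0.175 to 0.261 and Sypl from -0.0563 to 0.022 (0.0078 without control 1). Prkar2b was also -0.187 with row as a block. Cog5 turned to 0.0986 with row as a block and Sipa1l1 to 0.0819 with the mean of its probes. Sypl turned to 0.00274 with quantile normalisation and 0.0409 with normexp. The arrays' signal over background sets a further limit: the lowest signal above background was 18.5 to 20.9 units in row 1 and 29.6 and 32.2 units in row 2.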
